A study of Mus musculus with 6 samples.

Results

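The 47 genes described here encode proteins that make coenzyme Q (11 genes), iron-sulfur clusters (9 genes) and heme (6 genes), or that help to assemble complex IV (10 genes), complex III (5 genes) and complexes I, II and V (6 genes) of the mitochondrial respiratory chain. They were taken by gene symbol from a list, and all 47 were found among the 35976 rows of a table of normalized read counts. RNA was measured by sequencing in 6 libraries of fully differentiated primary mouse adipocytes of genotype Ppargc1a(fl/fl), so every group carries loxP-flanked copies of Ppargc1a. The 3 groups of 2 libraries received GFP adenovirus and control siRNA, GFP adenovirus and Rbm43 siRNA, or Cre adenovirus and Rbm43 siRNA. The Cre virus was meant to excise Ppargc1a. The sources used here give no fat depot, strain, sex or age of the mice and do not state whether the biological duplicates came from separate animals. The p-values below therefore measure the spread between these libraries only. Cre virus was thus compared with GFP virus only in cells with Rbm43 siRNA, and a group with Cre virus and control siRNA was not analysed here.

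Coenzyme Q is a lipid that carries electrons from complexes I and II to complex III, and its long isoprenoid tail and its head group are joined and modified inside mitochondria. Iron-sulfur clusters and heme are the metal cofactors through which electrons pass, and complex IV, cytochrome c oxidase, also needs copper and the modified heme a. Assembly factors insert these cofactors and hold subunits together while a complex is built, and most are not part of the finished complex. PGC-1α, the product of Ppargc1a, is a transcriptional coactivator known for raising mitochondrial genes in fat, muscle and liver, through DNA-binding factors that include ERRα, NRF-1 and the ETS factor GABP. Rbm43 encodes a protein with an RNA recognition motif.

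Promoter windows are shown for 5 genes that were among the clearest risers and fallers, so that the letters of known binding motifs can be seen beside the values. RefSeq (build GRCm38.p6) gave windows of 300 bases, 250 before and 50 after a start site, for 40 of the 47 genes (45 windows, since some genes have several starts). Windows for Cox18, Hscb, Tmem70, Coq5, Fech, Iscu and Cox17 were not used here. Each sequence is given 5′ to 3′ on the strand of its gene, with matches to the motifs in capitals. The motifs, searched on both strands, were CCGGAAG for ETS factors such as GABP, AAGGTCA for ERR, GCGCATGCG for NRF-1, AAGATGGCG for YY1 and CACGTG for an E-box.

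Pdss1, which rose with Rbm43 siRNA, has a window at chr2:22895272-22895571 on the plus strand that holds an ERR match near its 5′ end and a pair of ETS matches, read on the opposite strand as CTTCCGG, after the start.
Pdss1: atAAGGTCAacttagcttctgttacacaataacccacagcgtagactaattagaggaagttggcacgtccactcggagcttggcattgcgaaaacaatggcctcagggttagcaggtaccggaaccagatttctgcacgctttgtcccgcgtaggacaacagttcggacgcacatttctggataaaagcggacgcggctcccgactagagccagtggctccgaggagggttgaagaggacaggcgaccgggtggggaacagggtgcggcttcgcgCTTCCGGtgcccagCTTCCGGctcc
Isca1, which also rose, has a window at chr13:59769740-59770039 on the minus strand with an ETS match, again as CTTCCGG, and an ERR match.
Isca1: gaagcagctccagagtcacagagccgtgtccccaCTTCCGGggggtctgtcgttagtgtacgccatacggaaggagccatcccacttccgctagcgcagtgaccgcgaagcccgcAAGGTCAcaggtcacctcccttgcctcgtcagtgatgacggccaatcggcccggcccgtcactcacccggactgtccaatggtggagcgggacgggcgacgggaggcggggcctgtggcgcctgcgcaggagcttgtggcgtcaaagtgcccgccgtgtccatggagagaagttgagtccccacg
Alas1, the most abundant heme synthesis gene here per kb, has a window at chr9:106247681-106247980 on the minus strand with a palindromic NRF-1 match that reads as GCGCATGCG on both strands.
Alas1: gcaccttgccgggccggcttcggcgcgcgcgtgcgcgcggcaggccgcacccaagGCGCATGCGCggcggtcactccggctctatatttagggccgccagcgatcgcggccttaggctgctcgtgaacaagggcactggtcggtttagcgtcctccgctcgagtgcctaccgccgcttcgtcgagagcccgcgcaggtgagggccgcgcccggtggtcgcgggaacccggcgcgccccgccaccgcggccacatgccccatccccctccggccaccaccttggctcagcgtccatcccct
Coq10b, which fell with Rbm43 siRNA, has a window at chr1:55052520-55052819 on the plus strand with an E-box and no ETS, ERR, NRF-1 or YY1 match.
Coq10b: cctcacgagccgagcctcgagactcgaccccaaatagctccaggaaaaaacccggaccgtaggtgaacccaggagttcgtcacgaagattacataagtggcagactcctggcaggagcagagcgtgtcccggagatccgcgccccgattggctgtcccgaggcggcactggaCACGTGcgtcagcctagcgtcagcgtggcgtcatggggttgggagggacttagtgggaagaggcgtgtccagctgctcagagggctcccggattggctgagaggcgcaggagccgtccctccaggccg
Fdx1, the gene with the largest rise, has a window at chr9:51963553-51963852 on the minus strand with no match to any of the 5 motifs.
Fdx1: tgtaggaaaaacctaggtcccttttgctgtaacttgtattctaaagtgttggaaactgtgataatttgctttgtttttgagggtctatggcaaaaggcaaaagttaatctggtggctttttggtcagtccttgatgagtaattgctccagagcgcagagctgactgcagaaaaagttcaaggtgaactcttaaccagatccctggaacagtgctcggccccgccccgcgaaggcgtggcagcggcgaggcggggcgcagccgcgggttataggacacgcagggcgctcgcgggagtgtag

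The ETS letters were found in the windows of 17 of the 40 genes. By window, that was 40% of the 45, against 8.86% of all 32851 RefSeq windows of this length and 11.6% of the 21262 windows of protein-coding genes. The YY1 letters were found in Atpaf2, Coq9, Cox10 and Isca2, or 8.89% of windows against 1.83% of protein-coding windows. NRF-1 letters were found in Alas1 and Ttc19 (6.67% of windows, 2.35% of protein-coding windows) and ERR letters in Coq10a, Isca1 and Pdss1 (6.67%, 4.08%). The NRF-1 share counts overlapping Alas1 windows that hold the same site, before the start in the window shown and after it in the other. By gene, NRF-1 letters were in 2 of 40 (5%). The E-box was found in Atpaf2, Coq10b, Coq4 and Sco2 (8.89%, 7.84%). Among genes with ETS letters, Pdss2, Fdxr, Bcs1l, Cox16, Sco1 and Surf1 were not called changed in any comparison below, and the others were in some comparison. Of the genes with an E-box, Atpaf2 rose with Rbm43 siRNA, Coq10b and Coq4 fell, and Sco2 was not called. The motifs were chosen after the sequences and the expression values had been seen. A match is only a run of letters, and its absence here says only that those letters are not in these windows.

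Recovered reads in genes ranged from 15775398 to 21961724 per library. In the control, Rbm43 siRNA and Cre groups in turn, Rbm43 was at 185 and 224, 43.7 and 46.6, and 53.8 and 32.5 normalized counts. Ppargc1a was at 163 and 202, 399 and 423, and 463 and 469 normalized counts in the same order. The whole-gene count of Ppargc1a does not check its excision, and directions for Cre virus follow the virus labels. The summed normalized counts of 8 adipocyte markers ranged from 289092 to 301953 with control siRNA, 377685 to 385713 with Rbm43 siRNA and 323156 to 324788 with Cre virus. Of these 8 markers 7 rose with Rbm43 siRNA and 7 fell with Cre virus. The summed counts of 4 smooth muscle markers were 49492 to 54752, 56498 to 58898 and 67520 to 70631 in that order, with 2 of 4 higher with Rbm43 siRNA and 4 of 4 higher with Cre virus. Summed counts of 5 macrophage markers lay between 1226 and 1510 in every library, and of these 1 fell with Rbm43 siRNA. Summed counts of 4 endothelial markers lay between 131 and 173. Summed counts of 5 preadipocyte and fibroblast markers lay between 18987 and 20870, with 1 of 4 tested markers higher with Rbm43 siRNA. The 5 erythroid markers, which include the erythroid heme enzyme gene Alas2, summed to at most 2.80 normalized counts per library. The adipocyte markers moved in the direction of most of the called genes described below. The smooth muscle markers rose with Cre virus, where the called genes described below fell. The part of both marker lists in the results was not tested. In these bulk samples, fewer cells of a type and less RNA per cell cannot be told apart.

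The first comparison asked what depletion of Rbm43 did to these genes, and set Rbm43 siRNA against control siRNA in cells with GFP virus. Genes called changed are those with an adjusted p under 0.05 in limma over 14211 genes tested, and fold changes are differences of log2(normalized count + 1) with standard errors (SE). Of the 47 genes 18 rose (38.3%) and 3 fell (6.38%), where 13.5% of all genes tested rose and 9.76% fell. The genes that rose most were Fdx1 (log2 fold change 0.81), Pdss1 (0.74) and Coq5 (0.68), and the 3 that fell were Coq4, Coq10b and Fech. The median log2 fold change of the 47 genes was 0.19, against -0.01 for all genes tested. By role, rises came to 5 of 11 coenzyme Q genes, 3 of 9 iron-sulfur genes, 3 of 6 heme genes, 3 of 10 complex IV factors, 0 of 5 complex III factors and 4 of 6 factors of complexes I, II and V. Unadjusted p was under 0.05 for 1 of the 5 complex III factors, and edgeR and DESeq2 on the recovered reads called 0 of them. Leaving out each library in turn gave 15 to 22 rises among the 47 genes and 2 to 4 falls, and 15 of the 21 calls were kept without any 1 of the 6 libraries. By role the rises then ranged from 4 to 6 for coenzyme Q, 3 to 5 for iron-sulfur genes, 2 to 4 for complex IV and 2 to 4 for complexes I, II and V, and stayed at 3 for heme and 0 for complex III. In a fit without a mean-variance trend the 47 gave 9 rises and 1 fall, and DESeq2 on the recovered reads gave 14 rises and 2 falls.

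The second comparison asked what Cre virus added in cells already depleted of Rbm43. Of the 47 genes 21 fell (44.7%) and 0 rose, where 5.88% of all genes tested fell and 2.62% rose. No member had an unadjusted p under 0.05 in the upward direction, and edgeR and DESeq2 called 0 rises. DESeq2 called 14 falls and edgeR 21. Falls were smaller than the largest rises of the first comparison, from -0.24 for Nfs1 to -0.48 for Pdss1 on the log2 scale. The median of the 47 was -0.24, against 0.00 for all genes tested. Falls came to 6 of 11 coenzyme Q genes, 5 of 9 iron-sulfur genes, 2 of 6 heme genes, 3 of 10 complex IV factors, 1 of 5 complex III factors and 4 of 6 factors of complexes I, II and V. The count of falls depended on single libraries. It was 8 without replicate 1 and 8 without replicate 2 of the Cre group, and 11 without replicate 1 and 11 without replicate 2 of the Rbm43 siRNA group. It reached 23 without control replicate 1. By role, leaving out 1 library gave 2 to 6 falls for coenzyme Q, 0 to 6 for iron-sulfur genes, 1 to 3 for heme, 1 to 3 for complex IV and 1 to 4 for complexes I, II and V, and 1 for complex III in every case. Without a filter on low values it was 11, and in a fit without a mean-variance trend limma called 0 of the 47 and 0 of all genes, with 2355 genes at an unadjusted p under 0.05. Coq5, Coq9, Alas1, Cox17, Uqcc1 and Foxred1 kept their calls without any 1 of the 6 libraries.

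The first and second comparisons share the Rbm43 siRNA libraries with GFP virus, so a gene that is high in those libraries is higher in the first and lower in the second. The third comparison, of the Cre group against the control siRNA group, does not use those libraries in its difference. In it 4 genes were higher (8.51%), namely Fdx1, Cox15, Coq5 and Isca1, and 9 were lower (19.1%), where 8.47% of all genes tested were higher and 6.28% lower. The 9 were Coq3, Coq4, Coq10b, Iscu, Fech, Cox14, Cox17, Uqcc1 and Atpaf1. The median of the 47 was -0.05, against 0.00 for all genes tested, and it was 0.016 without control replicate 1. Without Cre replicate 1 the counts were 2 higher and 3 lower, and without Cre replicate 2 the count of lower genes was 5. Without a mean-variance trend 2 were higher and 1 was lower, and DESeq2 called 3 higher and 6 lower. It shares the control libraries with the first comparison and the Cre libraries with the second, and values for each comparison are therefore given side by side. Across the 3 comparisons, 13 genes were higher with Rbm43 siRNA, lower with Cre virus and not called between the Cre and control groups. Coq5, Isca1 and Fdx1 were higher, lower and higher. Coq3, Iscu, Cox17 and Uqcc1 were lower with Cre virus than in either group with GFP virus and not called with Rbm43 siRNA, and Coq4, Coq10b and Fech were lower in both groups with Rbm43 siRNA than with control siRNA. No call was made in any comparison for 19 of the 47. The share of all genes tested with each of these patterns was not counted, so the pattern counts have no background beside them.

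**Figure D1:**
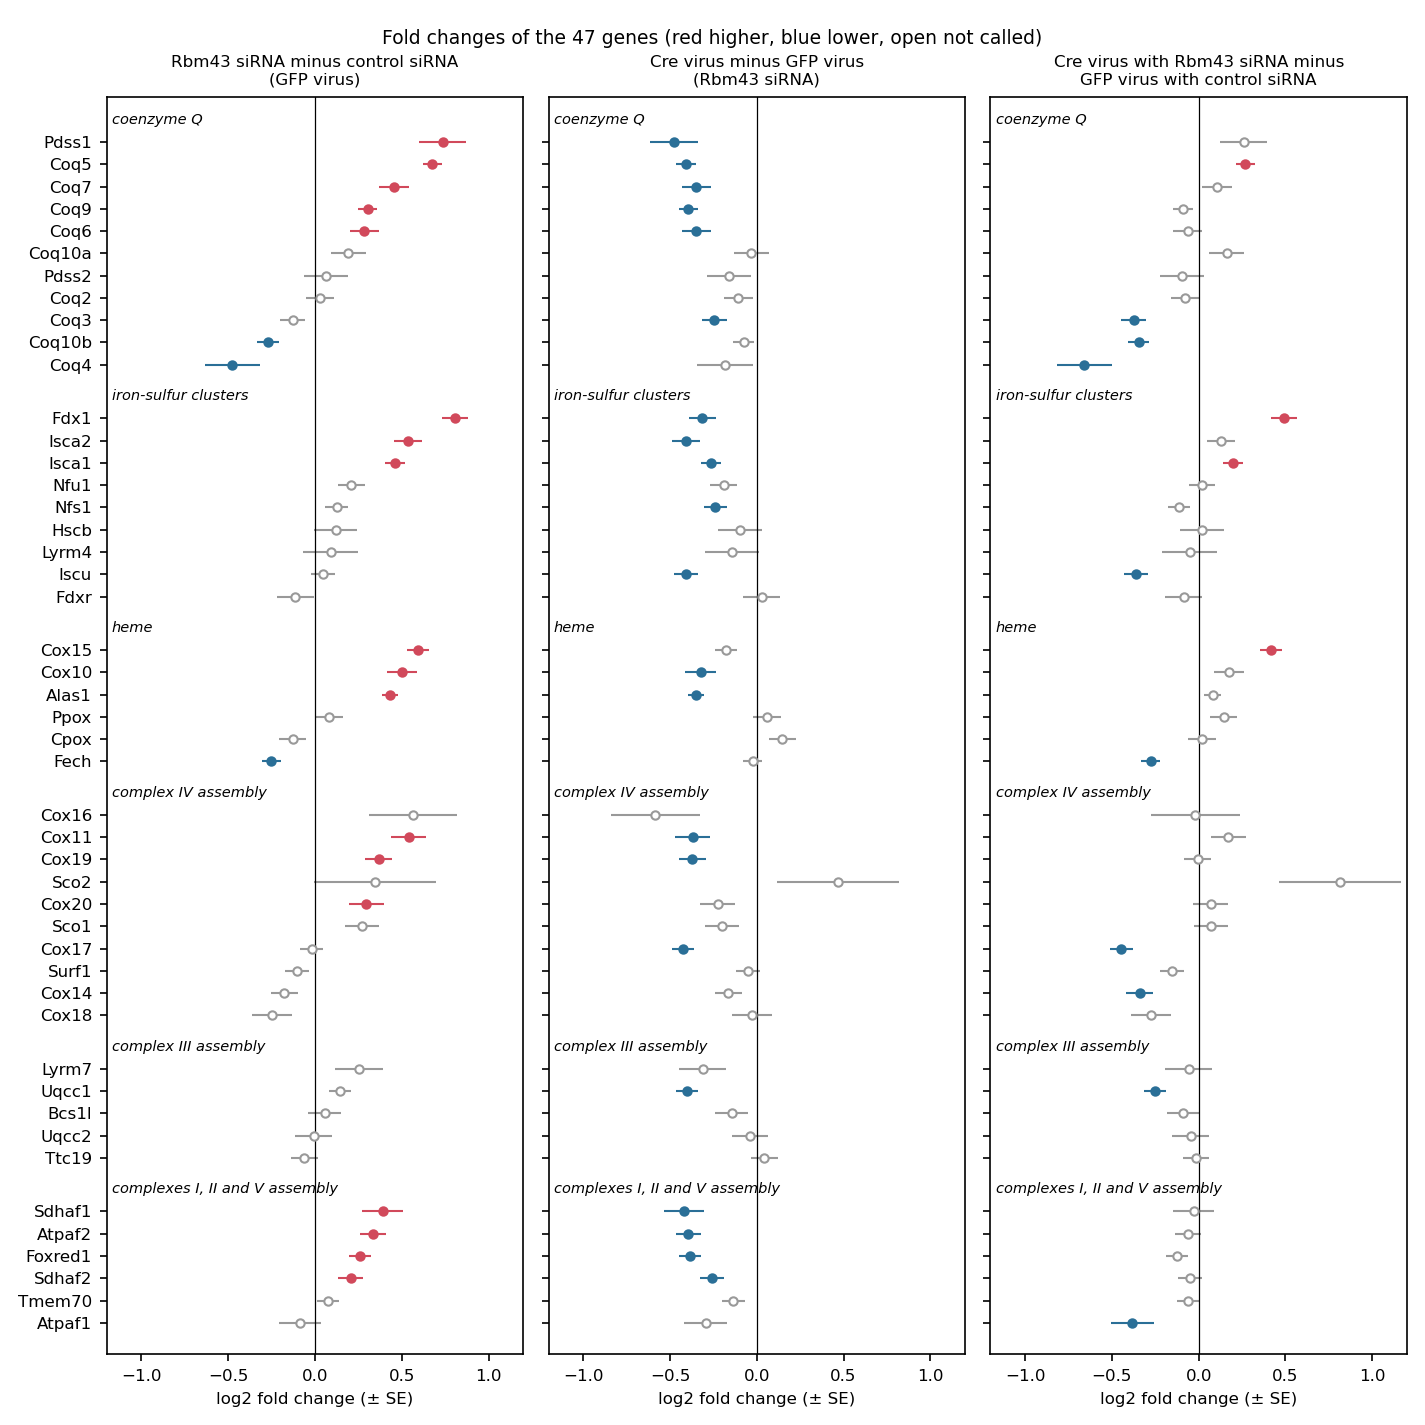
Log2 fold change (x axis, ± SE from limma) of each of the 47 genes (y axis, by role) in the 3 comparisons, with filled red points for genes called higher, filled blue for lower and open points for genes not called. With Rbm43 siRNA 18 points are red and 3 blue, with Cre virus 21 are blue and 0 red, and between the Cre and control groups 4 are red and 9 blue.

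Among the coenzyme Q genes, Pdss1 and Pdss2 encode the partners of the enzyme that builds the isoprenoid tail. Pdss1 was at 103 and 107 normalized counts with control siRNA, 184 and 167 with Rbm43 siRNA, and 116 and 137 with Cre virus. Both Rbm43 siRNA libraries stood above all others, and the Cre libraries stood above the controls. Its log2 fold change was 0.74 ± 0.14 (adjusted p = 4.89e-04) with Rbm43 siRNA, -0.48 ± 0.14 (adjusted p = 0.0331) with Cre virus and 0.26 ± 0.14 (adjusted p = 0.232) between the Cre and control groups. The fall with Cre virus was not called without either Rbm43 siRNA library or either Cre library (adjusted p between 0.0807 and 0.357). Its partner Pdss2 lay between 130 and 154 normalized counts in all 6 libraries and was not called.

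Coq5, the methyltransferase that adds a carbon-bound methyl group to the ring, was at 1107 and 1104 normalized counts with control siRNA, 1738 and 1798 with Rbm43 siRNA, and 1364 and 1302 with Cre virus. The 3 groups did not overlap, with the Cre libraries between the other pairs. The 3 comparisons gave log2 fold changes of 0.68 ± 0.06 (adjusted p = 5.57e-08), -0.41 ± 0.06 (adjusted p = 1.23e-04) and 0.27 ± 0.06 (adjusted p = 0.00265) in the 3 comparisons, the last not called without Cre replicate 1 (adjusted p = 0.0995). Coq7, which hydroxylates the ring, was at 390 and 355 with control siRNA, 498 and 523 with Rbm43 siRNA, and 384 and 419 with Cre virus. Its Cre and control libraries overlapped, and only the Rbm43 siRNA libraries stood apart. On the log2 scale the change was 0.45 ± 0.08 (adjusted p = 5.44e-04) with Rbm43 siRNA and -0.35 ± 0.08 (adjusted p = 0.0126) with Cre virus, the second lost without Rbm43 siRNA replicate 2 or either Cre library (adjusted p 0.0701 to 0.239).

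Coq9, a lipid-binding partner of Coq7, was at 1618 and 1498 normalized counts with control siRNA, 1890 and 1953 with Rbm43 siRNA, and 1471 and 1452 with Cre virus. The Rbm43 siRNA libraries were again the high ones, and the Cre libraries lay just below the controls. In the 3 comparisons the log2 fold change was 0.30 ± 0.06 (adjusted p = 5.50e-04), -0.39 ± 0.06 (adjusted p = 1.67e-04) and -0.09 ± 0.06 (adjusted p = 0.323). The monooxygenase gene Coq6 was also highest in the Rbm43 siRNA libraries, but its Cre and control libraries overlapped. Its log2 fold change was 0.29 ± 0.08 (adjusted p = 0.0199) and -0.35 ± 0.08 (adjusted p = 0.0126) in the first and second comparisons. Its rise was not called without control replicate 2 or Rbm43 siRNA replicate 1 (adjusted p 0.0717 and 0.163), nor was its fall without either Rbm43 siRNA library or Cre replicate 2 (adjusted p 0.0523 to 0.288).

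Other coenzyme Q genes went the other way. Coq10b encodes a START-domain protein that binds coenzyme Q and is needed for its use in respiration, and is not an enzyme of its synthesis. It was at 1056 and 1039 normalized counts with control siRNA, 864 and 872 with Rbm43 siRNA, and 819 and 828 with Cre virus. Both groups with Rbm43 siRNA stood below the controls, and the call was kept in the first and the third comparison under all 18 alternative settings (log2 fold change -0.27 ± 0.06, adjusted p = 0.00292, and -0.35 ± 0.06, adjusted p = 5.64e-04). The difference with Cre virus was -0.08 ± 0.06 (adjusted p = 0.54). Coq4, which is required for synthesis and for the stability of the enzyme complex, was at 151 and 128 with control siRNA, 86.4 and 115 with Rbm43 siRNA, and 91.0 and 84.3 with Cre virus. All 4 libraries with Rbm43 siRNA were below both controls. Its log2 fold change was -0.48 ± 0.16 (adjusted p = 0.0389) in the first comparison, a call lost without control replicate 1, Rbm43 siRNA replicate 1 or either Cre library (adjusted p 0.0657 to 0.366). It was -0.66 ± 0.16 (adjusted p = 0.00845) in the third, lost without either Cre library (adjusted p 0.0627 and 0.111). Of the 18 alternatives, 10 kept the Coq4 call in the first comparison and 13 in the third. In GENCODE M21, 27.1% of the exon bases of Coq4 overlap the antisense gene Trub2, and the sources used here do not say whether reads were counted by strand.

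Coq3, the other methyltransferase of the pathway, acting on oxygen, was at 731 and 669 normalized counts with control siRNA, 628 and 652 with Rbm43 siRNA, and 543 and 537 with Cre virus. It fell with Cre virus by 0.24 ± 0.07 on the log2 scale (adjusted p = 0.0402), a call lost without either Rbm43 siRNA library or either Cre library (adjusted p 0.0984 to 0.287), and between the Cre and control groups by 0.37 ± 0.07 (adjusted p = 0.00126). Of the 18 alternatives, 8 kept the fall of Coq3 with Cre virus. Coq2, which joins the tail to the ring, and Coq10a, the paralog of Coq10b, were not called in any comparison. Coq2 lay between 519 and 627 normalized counts and Coq10a between 224 and 277 over the 6 libraries. With Rbm43 siRNA 5 of the coenzyme Q genes were higher (45.5%, against 13.5% of all genes tested) and 2 lower (18.2%, against 9.76%). Their median log2 fold change was 0.19, and DESeq2 on the recovered reads called 4 higher and 1 lower. In the third comparison 1 was higher (9.09%, against 8.47% of all genes tested) and 3 were lower (27.3%, against 6.28%), with a median of -0.08. Leaving out 1 library gave 0 to 1 higher and 2 to 3 lower.

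**Figure D2:**
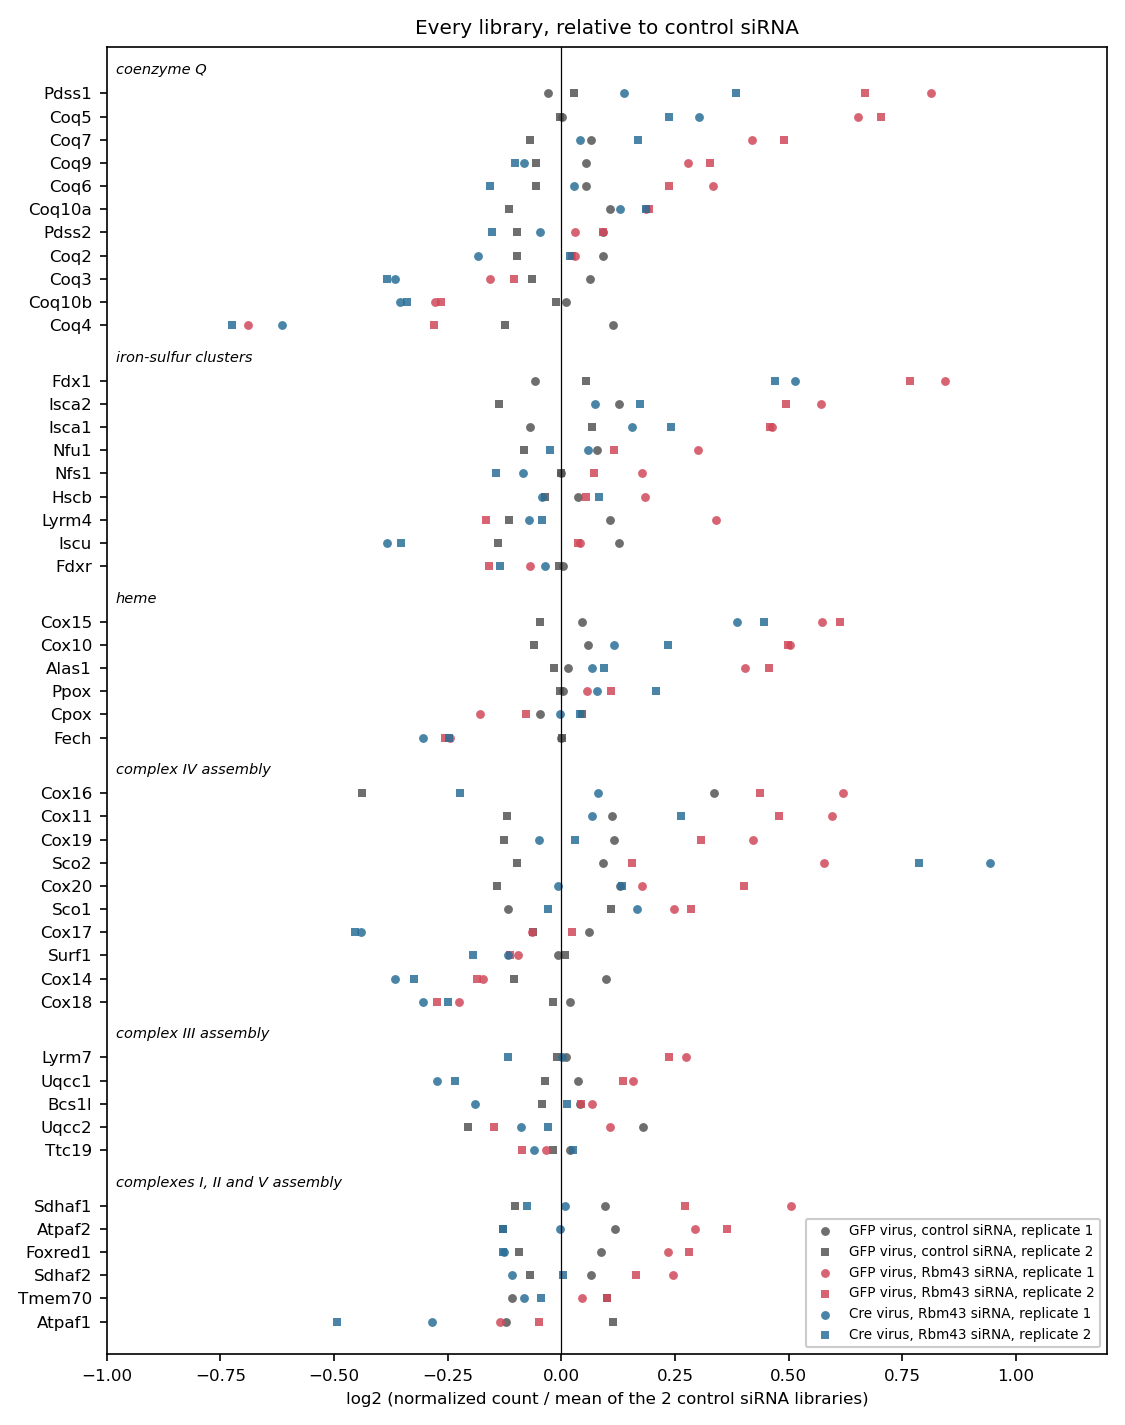
Each library's normalized count relative to the mean of the 2 control siRNA libraries (x axis, log2) for the 47 genes (y axis, by role and in the order of the first comparison), with circles for replicate 1 and squares for replicate 2. The red points (GFP virus, Rbm43 siRNA) of Pdss1, Coq5 and Fdx1 lie farthest right among the red ones, and the blue points (Cre virus, Rbm43 siRNA) of Coq4, Coq3 and Cox17 lie left of both controls.

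The iron-sulfur genes divide between the core assembly machine, which builds the first cluster on the scaffold Iscu, and later factors that make or deliver larger clusters. Fdx1 encodes a ferredoxin, an electron carrier of the mitochondrial matrix that serves lipoylation, heme a synthesis and steroid synthesis. It was at 383 and 414 normalized counts with control siRNA, 715 and 678 with Rbm43 siRNA, and 569 and 552 with Cre virus. The groups did not overlap, and the Cre libraries lay between the other groups. Log2 fold changes were 0.81 ± 0.08 (adjusted p = 2.31e-07), -0.31 ± 0.08 (adjusted p = 0.0118) and 0.49 ± 0.08 (adjusted p = 1.35e-04). The first and the third call were kept under all 18 alternatives, while the fall with Cre virus was lost without either Rbm43 siRNA library or either Cre library (adjusted p 0.0577 to 0.181). Fdxr, the reductase that hands electrons to the ferredoxin, lay between 198 and 222 normalized counts in all libraries and was not called (-0.11 ± 0.11 with Rbm43 siRNA, adjusted p = 0.493).

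Isca1 and Isca2 are partner proteins that act in the making of larger clusters. Isca1 was at 1413 and 1553 normalized counts with control siRNA, 2043 and 2038 with Rbm43 siRNA, and 1651 and 1751 with Cre virus. As for Fdx1, its groups did not overlap and the Cre libraries lay between. The 3 comparisons gave log2 fold changes of 0.46 ± 0.06 (adjusted p = 8.72e-06), -0.26 ± 0.06 (adjusted p = 0.00686) and 0.20 ± 0.06 (adjusted p = 0.0273). The second was lost without Rbm43 siRNA replicate 2 or either Cre library (adjusted p 0.0652 to 0.205), and the third without control replicate 1 or either Cre library (adjusted p 0.104 to 0.31). Isca2 was at 671 and 559 with control siRNA, 914 and 866 with Rbm43 siRNA, and 647 and 693 with Cre virus, so that the Cre libraries overlapped the controls. Its log2 fold change was 0.54 ± 0.08 (adjusted p = 6.09e-05) with Rbm43 siRNA and -0.41 ± 0.08 (adjusted p = 0.00285) with Cre virus, the second not called without Cre replicate 1 (adjusted p = 0.118).

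Iscu, the scaffold itself, was at 1675 and 1394 normalized counts with control siRNA, 1579 and 1575 with Rbm43 siRNA, and 1176 and 1201 with Cre virus. Only the Cre libraries stood apart, below the other 4. This gave a log2 fold change of 0.05 ± 0.07 (adjusted p = 0.696) with Rbm43 siRNA, -0.41 ± 0.07 (adjusted p = 8.37e-04) with Cre virus and -0.36 ± 0.07 (adjusted p = 0.00126) between the Cre and control groups. Without Cre replicate 1 neither of these falls passed (adjusted p = 0.0538 and 0.0549). Nfs1, the cysteine desulfurase that supplies the sulfur, was at 866 and 865 with control siRNA, 979 and 909 with Rbm43 siRNA, and 816 and 783 with Cre virus, a fall of -0.24 ± 0.06 with Cre virus (adjusted p = 0.026). That call was lost without either Rbm43 siRNA library or either Cre library (adjusted p 0.0586 to 0.299). Its partner gene Lyrm4, the co-chaperone gene Hscb and the late carrier gene Nfu1 were not called in any comparison, at 113 to 160, 137 to 160 and 719 to 938 normalized counts. The iron-sulfur genes had a median log2 fold change of 0.12 with Rbm43 siRNA and -0.24 with Cre virus.

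Alas1 encodes 5-aminolevulinate synthase, the rate-limiting enzyme of heme synthesis outside red cells. It was at 3770 and 3690 normalized counts with control siRNA, 4939 and 5122 with Rbm43 siRNA, and 3907 and 3980 with Cre virus. The Rbm43 siRNA libraries were high, and the Cre libraries lay a little above the controls. In the 3 comparisons the log2 fold change was 0.43 ± 0.05 (adjusted p = 1.62e-06), -0.35 ± 0.05 (adjusted p = 9.26e-05) and 0.08 ± 0.05 (adjusted p = 0.295). Fech, ferrochelatase, inserts the iron in the last step of the pathway. It was at 1784 and 1786 with control siRNA, 1505 and 1494 with Rbm43 siRNA, and 1445 and 1505 with Cre virus. Both groups with Rbm43 siRNA lay below the controls and overlapped each other. The log2 fold change was -0.25 ± 0.05 (adjusted p = 0.00201) with Rbm43 siRNA, -0.02 ± 0.05 (adjusted p = 0.854) with Cre virus and -0.28 ± 0.05 (adjusted p = 0.00149) between the Cre and control groups, the last not called without Cre replicate 1 (adjusted p = 0.0706). Cpox and Ppox, the oxidases that act just before Fech, were not called and lay between 433 and 506 and between 425 and 492 normalized counts.

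Cox10 and Cox15 convert heme b to the heme a of complex IV. Cox10 was at 322 and 297 normalized counts with control siRNA, 439 and 437 with Rbm43 siRNA, and 336 and 365 with Cre virus. The Cre libraries lay just above the controls and well below the Rbm43 siRNA libraries. Log2 fold changes were 0.50 ± 0.09 (adjusted p = 2.98e-04), -0.32 ± 0.09 (adjusted p = 0.0248) and 0.18 ± 0.09 (adjusted p = 0.203), the second lost without either Rbm43 siRNA library or either Cre library (adjusted p 0.103 to 0.306). Cox15 was at 798 and 749 with control siRNA, 1151 and 1183 with Rbm43 siRNA, and 1010 and 1053 with Cre virus. Its Cre libraries stayed nearer to the Rbm43 siRNA libraries than to the controls. The 3 comparisons gave log2 fold changes of 0.59 ± 0.06 (adjusted p = 1.04e-06), -0.18 ± 0.06 (adjusted p = 0.0947) and 0.42 ± 0.06 (adjusted p = 1.11e-04). The heme genes had a median of 0.26 with Rbm43 siRNA and -0.10 with Cre virus. With Rbm43 siRNA 3 were higher (50%, against 13.5% of all genes tested) and 1 lower (16.7%, against 9.76%). With Cre virus 2 were lower (33.3%, against 5.88%), of which DESeq2 called 1.

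**Figure D3:**
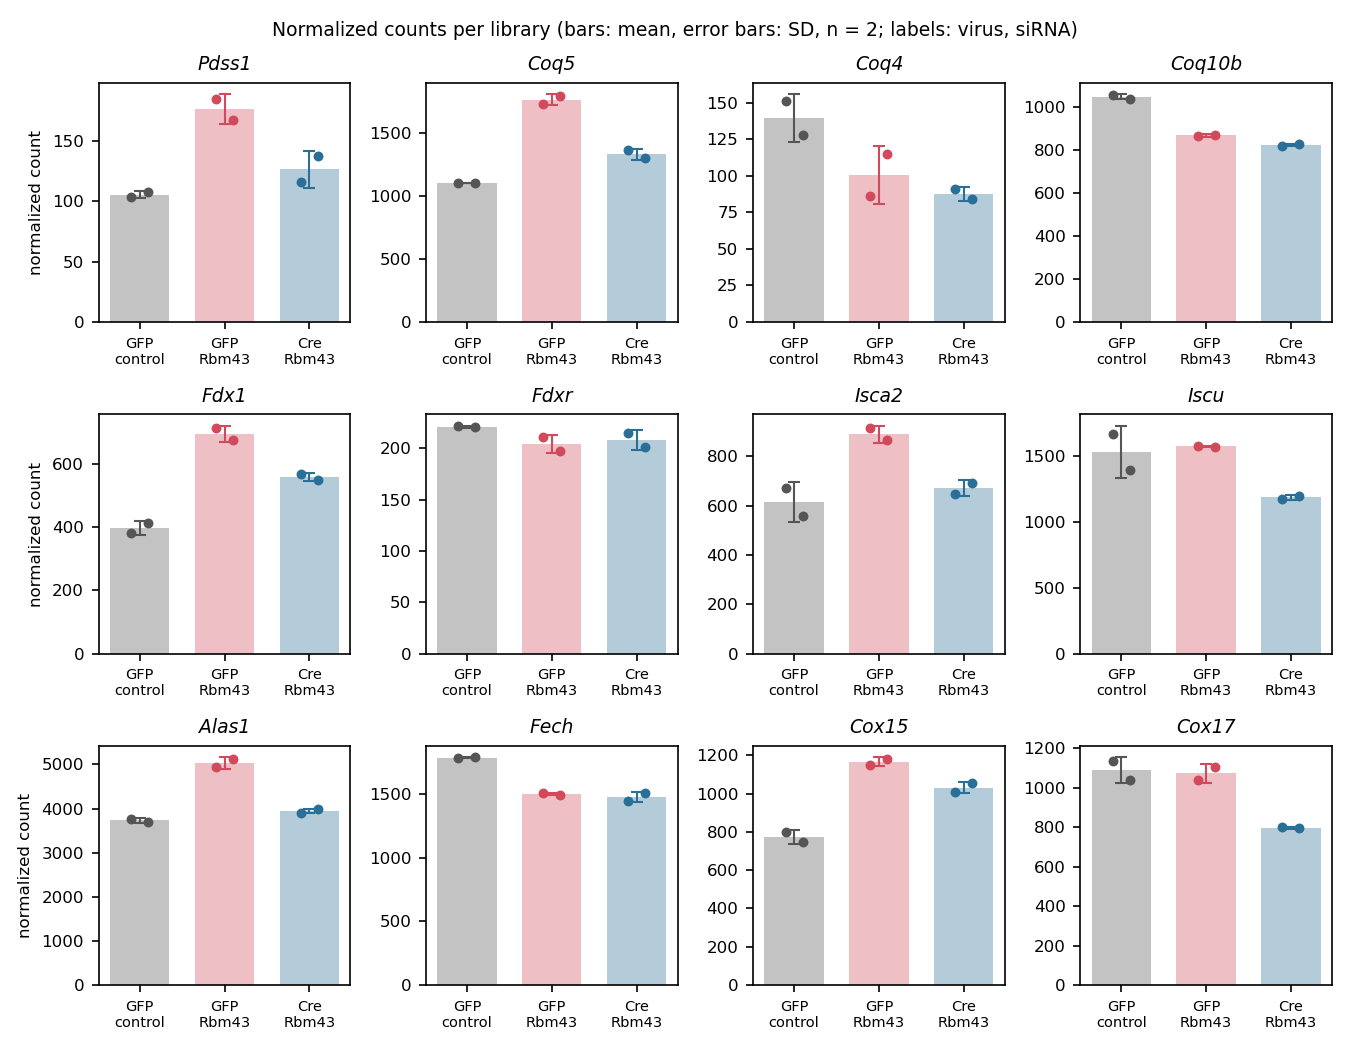
Normalized counts (y axis, from 0) of 12 of the genes in each group (x axis, virus and siRNA), with bars for the mean, error bars for the SD of 2 libraries and points for the libraries. Pdss1, Coq5, Fdx1, Isca2, Alas1 and Cox15 are highest with Rbm43 siRNA and GFP virus, Coq4, Coq10b and Fech are highest with control siRNA, and Iscu and Cox17 are low only with Cre virus.

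Complex IV needs copper, which Cox17, Cox11, Cox19 and the Sco proteins carry or insert. Cox11 was at 299 and 254 normalized counts with control siRNA, 418 and 385 with Rbm43 siRNA, and 290 and 332 with Cre virus. The Rbm43 siRNA libraries lay above the other 4, among which Cre and control overlapped. Its log2 fold change was 0.54 ± 0.10 (adjusted p = 6.04e-04) with Rbm43 siRNA and -0.37 ± 0.10 (adjusted p = 0.0276) with Cre virus, the second lost without either Rbm43 siRNA library or either Cre library (adjusted p 0.0795 to 0.373). In GENCODE M21, 48.3% of the exon bases of Cox11 overlap the antisense gene Tom1l1. Cox19 was at 798 and 676 with control siRNA, 987 and 911 with Rbm43 siRNA, and 712 and 753 with Cre virus. Again only the Rbm43 siRNA libraries stood apart. On the log2 scale the change was 0.37 ± 0.08 (adjusted p = 0.00169) with Rbm43 siRNA and -0.37 ± 0.08 (adjusted p = 0.00413) with Cre virus, the fall lost without Rbm43 siRNA replicate 1 or either Cre library (adjusted p 0.0603 to 0.137).

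Cox17, the copper chaperone that loads the Sco proteins and Cox11, did not follow them. It was at 1134 and 1041 normalized counts with control siRNA, 1039 and 1105 with Rbm43 siRNA, and 801 and 794 with Cre virus. The GFP groups overlapped, and both Cre libraries lay below all 4 of their libraries. In the 3 comparisons the log2 fold change was -0.02 ± 0.06 (adjusted p = 0.869), -0.43 ± 0.06 (adjusted p = 2.81e-04) and -0.45 ± 0.06 (adjusted p = 7.63e-05), and the last 2 calls were kept without any 1 of the 6 libraries and lost without a mean-variance trend (adjusted p = 0.121 and 0.0513). Cox20, a chaperone of the Cox2 subunit, was at 414 and 343 with control siRNA, 428 and 500 with Rbm43 siRNA, and 377 and 415 with Cre virus. Its log2 fold change with Rbm43 siRNA was 0.29 ± 0.10 (adjusted p = 0.0406), a call lost under 11 of the 18 alternatives, among them the fits without control replicate 2, Rbm43 siRNA replicate 2 or either Cre library (adjusted p 0.0756 to 0.364). In GENCODE M21, 91.1% of the exon bases of Cox20 overlap the antisense gene Hnrnpu.

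Cox14, an early chaperone of the Cox1 subunit, was called only between the Cre and control groups (660 and 573 against 479 and 493 normalized counts, log2 fold change -0.34 ± 0.08, adjusted p = 0.00593). That call was lost without either Cre library (adjusted p 0.0635 and 0.106). The other complex IV factors, Cox16, Cox18, Sco1, Sco2 and Surf1, were not called in any comparison. Changes that were not called included the largest among complex IV factors. On the log2 scale these were 0.56 with Rbm43 siRNA, -0.58 with Cre virus and 0.81 in the third comparison. Sco2 was the lowest of the 47 by raw level, at 11 to 22.5 normalized counts, and its SE of 0.35 was the widest. It shares 68.3% of its exon bases with Tymp on the same strand, and Cox16 shares 56.8% with Gm20498, so their counts are uncertain. The complex IV factors had a median log2 fold change of 0.28 with Rbm43 siRNA and -0.21 with Cre virus.

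Of the 5 complex III factors 1 was called in the second and the third comparison and 0 with Rbm43 siRNA, where 13.5% of all genes tested rose and 9.76% fell, so a count of 0 among 5 is near the background. Uqcc1, which helps to make and stabilise the cytochrome b subunit, was at 912 and 868 normalized counts with control siRNA, 992 and 979 with Rbm43 siRNA, and 736 and 757 with Cre virus. The Cre libraries lay below all others. Log2 fold changes were 0.15 ± 0.06 (adjusted p = 0.106), -0.40 ± 0.06 (adjusted p = 4.09e-04) and -0.25 ± 0.06 (adjusted p = 0.00991), and the last was lost without either Cre library (adjusted p 0.0807 and 0.147). Lyrm7 and Ttc19, which act on the Rieske iron-sulfur subunit during and after its insertion, were not called. Lyrm7 was at 112 and 111 with control siRNA, 135 and 132 with Rbm43 siRNA, and 112 and 103 with Cre virus, with 0.25 ± 0.14 (adjusted p = 0.199) and -0.31 ± 0.14 (adjusted p = 0.186) in the first and second comparisons. Ttc19 lay between 470 and 509 normalized counts in all 6 libraries. Bcs1l, which moves the Rieske protein across the inner membrane, lay between 280 and 335, and Uqcc2, the partner of Uqcc1, between 453 and 591.

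Of the factors for complexes I, II and V, 4 were higher with Rbm43 siRNA and lower with Cre virus, and none of these 4 was called between the Cre and control groups. That was 66.7% of this role, where 13.5% of all genes tested rose with Rbm43 siRNA and 5.88% fell with Cre virus. DESeq2 called 2 of this role higher with Rbm43 siRNA and 2 lower with Cre virus. Atpaf2, a chaperone of the F1 part of ATP synthase, was at 1170 and 986 normalized counts with control siRNA, 1323 and 1387 with Rbm43 siRNA, and 1077 and 986 with Cre virus. Cre and control overlapped below the Rbm43 siRNA libraries. This gave a log2 fold change of 0.33 ± 0.07 (adjusted p = 0.00252) with Rbm43 siRNA and -0.39 ± 0.07 (adjusted p = 0.00183) with Cre virus, the fall lost without Cre replicate 2 (adjusted p = 0.112). Foxred1, a complex I assembly factor, was at 1550 and 1367 with control siRNA, 1716 and 1772 with Rbm43 siRNA, and 1337 and 1334 with Cre virus. Its Rbm43 siRNA libraries were the highest and its Cre libraries the lowest. The log2 fold change was 0.26 ± 0.06 (adjusted p = 0.00442) with Rbm43 siRNA and -0.38 ± 0.06 (adjusted p = 4.71e-04) with Cre virus, and the rise was not called without Rbm43 siRNA replicate 2 (adjusted p = 0.0525).

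Sdhaf1 and Sdhaf2 act in the assembly of complex II, succinate dehydrogenase, where Sdhaf1 serves the iron-sulfur subunit and Sdhaf2 the flavin-bearing one. Sdhaf1 was at 200 and 174 normalized counts with control siRNA, 265 and 226 with Rbm43 siRNA, and 188 and 177 with Cre virus. Only the Rbm43 siRNA libraries stood apart. Its log2 fold change was 0.39 ± 0.12 (adjusted p = 0.0211) with Rbm43 siRNA, lost without control replicate 2 or Rbm43 siRNA replicate 1 (adjusted p 0.117 and 0.235), and -0.42 ± 0.12 (adjusted p = 0.0304) with Cre virus, lost without Rbm43 siRNA replicate 1 or either Cre library (adjusted p 0.157 to 0.278). In GENCODE M21, 69.6% of its exon bases overlap an antisense gene. Sdhaf2, between 764 and 976 normalized counts, changed by 0.21 ± 0.07 (adjusted p = 0.0395) with Rbm43 siRNA and -0.26 ± 0.07 (adjusted p = 0.026) with Cre virus. Of the 18 alternatives, 6 kept the rise of Sdhaf2 and 11 its fall. Its rise was lost on leaving out any library other than control replicate 1 (adjusted p 0.0715 to 0.244), and its fall without either Rbm43 siRNA library or either Cre library (adjusted p 0.0795 to 0.355). Atpaf1, the partner of Atpaf2 in ATP synthase assembly, was called only between the Cre and control groups (186 and 219 against 166 and 144 normalized counts, -0.38 ± 0.12, adjusted p = 0.0431). That call was lost on leaving out any library other than control replicate 1 (adjusted p 0.0546 to 0.347). Of the 18 alternatives, 8 kept the Atpaf1 call. Tmem70, which serves the membrane part of ATP synthase, lay between 1343 and 1553 and was not called.

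Paralogs and pathway partners could be compared within each library as ratios of normalized counts per kb of merged exon, which do not depend on the library's size factor. The Coq10b to Coq10a ratio was 2.17 and 2.49 with control siRNA, 1.68 and 1.69 with Rbm43 siRNA, and 1.65 and 1.61 with Cre virus. Both groups with Rbm43 siRNA lay below the controls. The Pdss1 to Pdss2 ratio was 0.939 and 1.11 with control siRNA, 1.75 and 1.52 with Rbm43 siRNA, and 1.16 and 1.48 with Cre virus, lowest in the controls. The Sco1 to Sco2 ratio was 7.61 and 10.1, 7.01 and 9.62, and 5.14 and 5.0 in the same order, with the Cre libraries lowest, and it carries the overlap of Sco2 with Tymp. Over the 6 libraries the ratio of Isca1 to Isca2 ranged from 0.362 to 0.478, both of them control libraries. Sdhaf2 to Sdhaf1 ranged from 1.27 to 1.61, and its Rbm43 siRNA libraries lay below the controls while its Cre libraries overlapped both. Atpaf2 to Atpaf1 ranged from 7.60 to 12.1, with all 4 libraries with Rbm43 siRNA above both controls. Uqcc1 to Uqcc2 ranged from 0.205 to 0.288, with both Cre libraries below the other 4.

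A pair of further ratios was chosen after the values had been seen and is given as a description. The Fdx1 to Fdxr ratio was 1.56 and 1.70 with control siRNA, 3.07 and 3.10 with Rbm43 siRNA, and 2.39 and 2.48 with Cre virus. The Alas1 to Fech ratio was 4.74 and 4.63, 7.35 and 7.68, and 6.06 and 5.93 in the same order. In each, the groups did not overlap and the Cre libraries lay between the other groups.

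**Figure D4:**
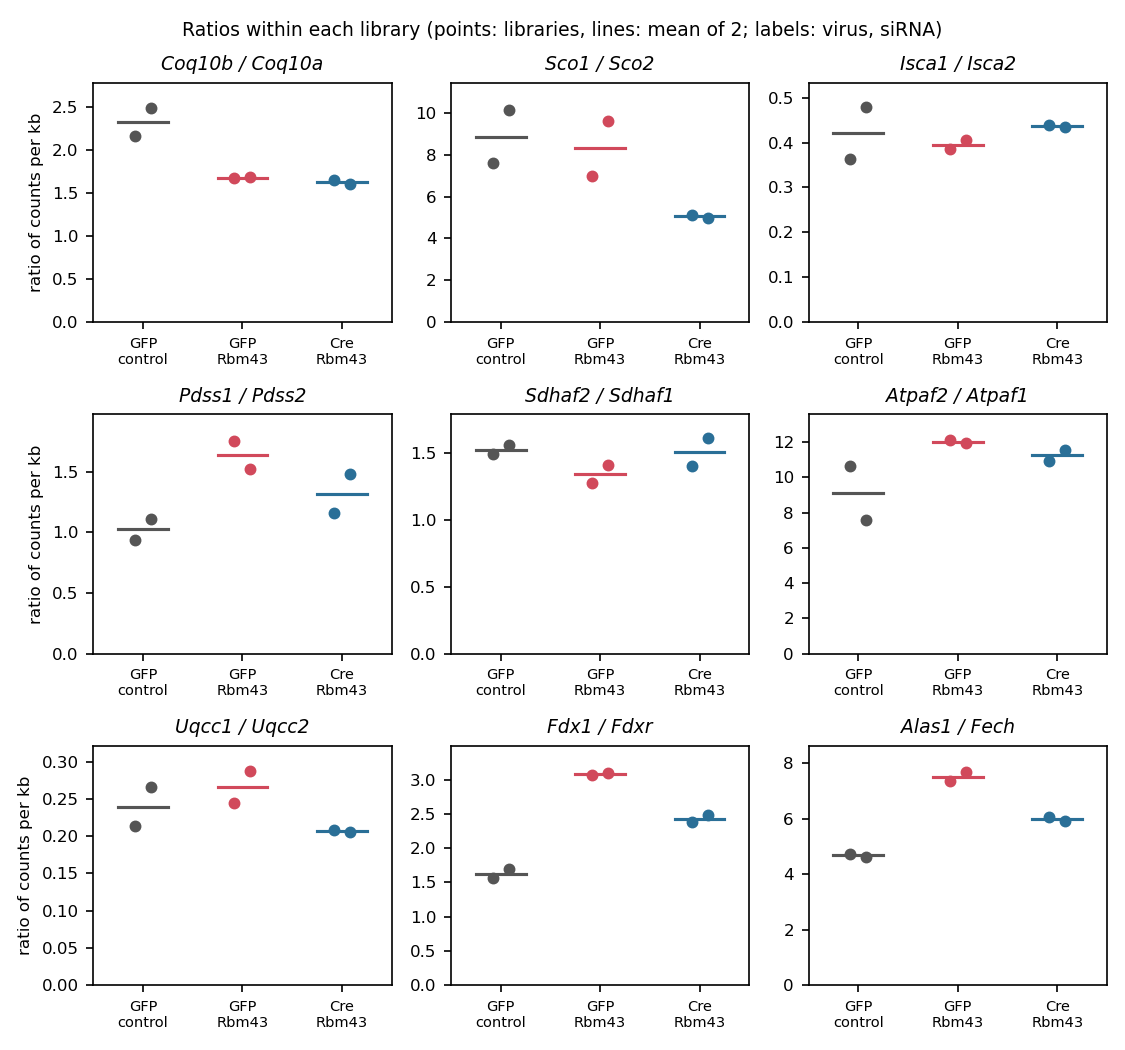
Ratio of normalized counts per kb of merged exon (y axis, from 0) for 9 pairs of genes in each library (points), by virus and siRNA (x axis), with a line at the mean of 2 libraries. Coq10b to Coq10a is highest in the controls at 2.17 and 2.49, and Fdx1 to Fdxr and Alas1 to Fech are highest with Rbm43 siRNA and GFP virus.

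Per kb of merged exon, the mean level over the 6 libraries spanned from 11.5 normalized counts for Cox16 to 798 for Tmem70. Cox14 (759), Alas1 (686), Iscu (659) and Uqcc2 (613) followed Tmem70, and Sco2 (12.9), Lyrm7 (23.2), Pdss2 (24.1), Pdss1 (31.9) and Coq4 (32.1) stood just above Cox16. Coenzyme Q genes thus held both abundant members, with Coq9 at 539 and Coq5 at 462, and the rare tail synthase genes. The levels rest on GENCODE M21 exon lengths merged over all transcripts of a gene, and the authors' annotation may differ. For Cox17 (5773 bases) and Isca2 (1838 bases) the merged exons cover the whole gene. Levels per kb of such genes, and the size of ratios such as Isca1 to Isca2, depend on that merging.

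**Figure D5:**
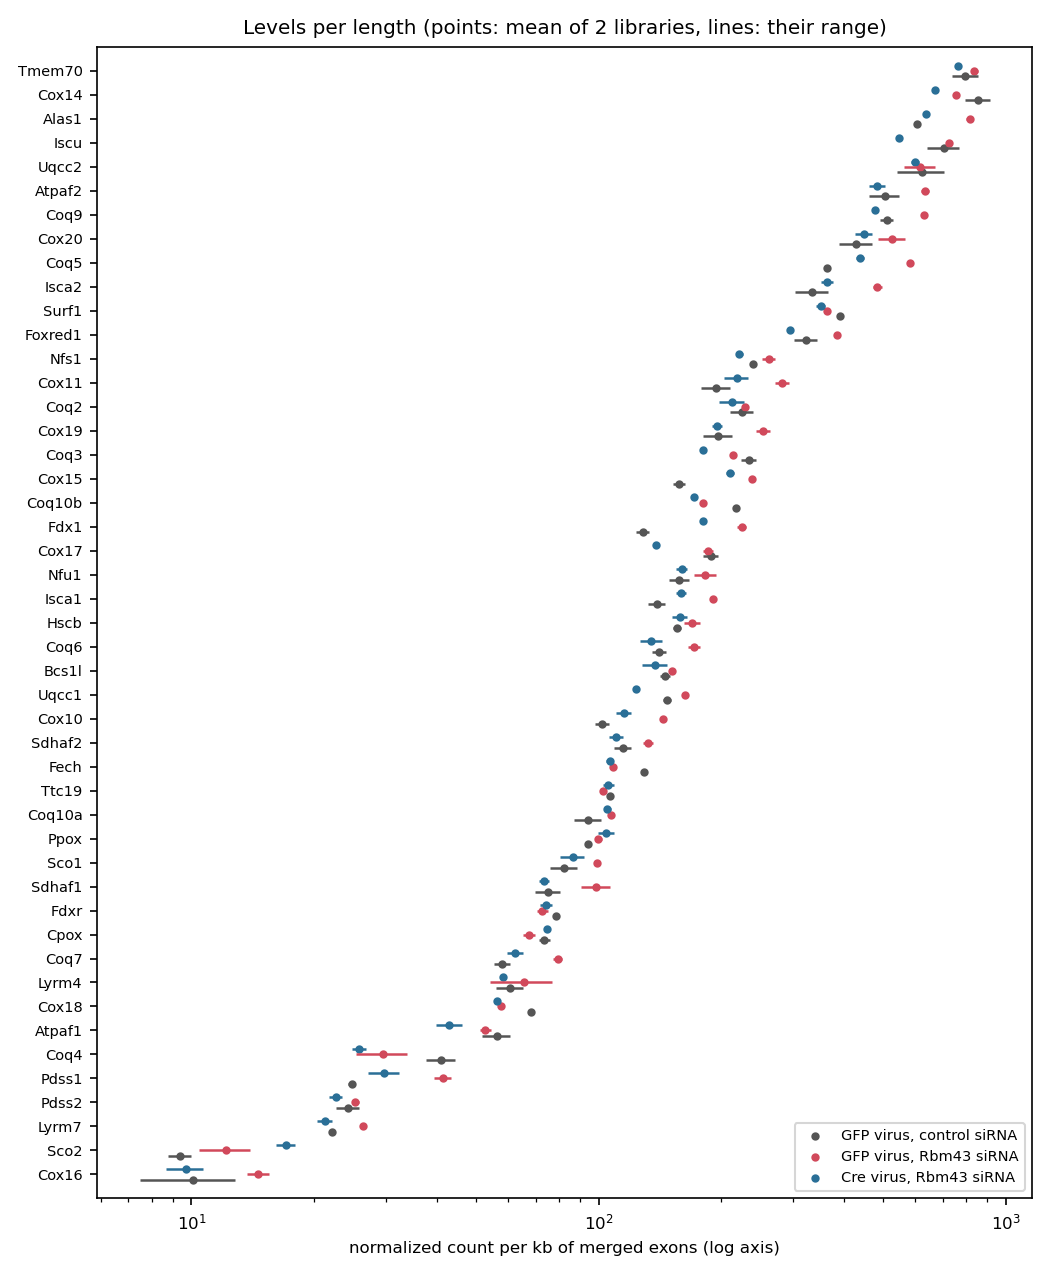
Normalized count per kb of merged exon (x axis, log scale) for the 47 genes (y axis, in order of mean level), with points for the mean of 2 libraries and lines for their range in each group. Tmem70 is the highest at 798 and Cox16 the lowest at 11.5 over the 6 libraries.

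A list of 45 other genes of these pathways was used to set the 47 in context, of which 40 were in the table and 37 passed the filter. With Rbm43 siRNA 15 rose (40.5%, against 13.5% of all genes tested) and 2 fell (5.41%, against 9.76%), with a median log2 fold change of 0.19. With Cre virus 2 rose (5.41%, against 2.62%) and 11 fell (29.7%, against 5.88%), with a median of -0.20. In the third comparison 3 were higher (8.11%, against 8.47% of all genes tested) and 1 lower (2.7%, against 6.28%), with a median of 0.04. Those counts ranged from 1 to 7 and from 0 to 3 when 1 library was left out. Without a mean-variance trend the list gave 8 rises and 0 falls with Rbm43 siRNA and 0 calls in the other comparisons. Among the risers with Rbm43 siRNA were Tfrc (0.42 ± 0.06, adjusted p = 2.01e-05), the transferrin receptor, and the complex IV factors Cmc2 (0.77 ± 0.10, adjusted p = 1.06e-05) and Coa5 (0.56 ± 0.05, adjusted p = 8.96e-08). The 2 that fell were Hmox1 (-0.31 ± 0.06, adjusted p = 0.00123), which degrades heme, and Slc25a37 (-0.24 ± 0.08, adjusted p = 0.0431), the mitochondrial iron importer mitoferrin. Leaving out any library other than control replicate 2 left 1 fall with Rbm43 siRNA. With Cre virus the same pair rose, Hmox1 by 0.24 ± 0.06 (adjusted p = 0.0208) and Slc25a37 by 0.46 ± 0.08 (adjusted p = 0.001). Slc25a37 was at 457 and 436 normalized counts with control siRNA, 360 and 398 with Rbm43 siRNA, and 526 and 519 with Cre virus, with the Cre libraries above the others. Among those that fell with Cre virus were Cmc2 (-0.60 ± 0.10, adjusted p = 6.23e-04), Slc25a39 (-0.36 ± 0.06, adjusted p = 5.50e-04), a mitochondrial glutathione carrier, and Taco1 (-0.42 ± 0.08, adjusted p = 0.00172), a translational activator of the Cox1 subunit. Those higher between the Cre and control groups included Coa5 (0.35 ± 0.05, adjusted p = 4.41e-05) and Tfrc (0.19 ± 0.06, adjusted p = 0.0283). The heme breakdown gene Blvrb was lower (-0.30 ± 0.07, adjusted p = 0.00581). Without Cre replicate 1 the list had 1 fall and 1 rise with Cre virus, and without Cre replicate 2, 3 falls and 1 rise. Without Rbm43 siRNA replicate 1 it had 5 falls, and without replicate 2, 4 falls and 1 rise.

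The subunits that the assembly factors act on were counted in the same way. Of 39 nuclear subunit genes of complexes II to V with cytochrome c, 36 rose with Rbm43 siRNA (median log2 fold change 0.44) and 0 fell, and 36 fell with Cre virus (median -0.35) and 0 rose. An unadjusted p under 0.05, edgeR and DESeq2 each also gave 0 falls with Rbm43 siRNA and 0 rises with Cre virus. The falls with Cre virus came to 23 without Cre replicate 1 and to 0 without a mean-variance trend. In the third comparison 11 were higher and 1 was lower, with a median of 0.06, and the higher count was 22 without control replicate 1, 4 without control replicate 2, and 1 and 2 without Cre replicate 1 and 2. Of all genes tested, 13.5% rose with Rbm43 siRNA and 5.88% fell with Cre virus. In the third comparison 28.2% of subunit genes were higher and 2.56% lower, against 8.47% and 6.28% of all genes tested. The share called higher with Rbm43 siRNA was 92.3% of subunit genes, against 38.3% of the 47 genes. The SE was at most 0.08 among the subunit genes (Atp5k) but 0.16 for Coq4 among the 47, and a wider SE makes a call harder to reach. The difference in shares and the part of SE in it were not tested.

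Replicate spread bears on the comparisons with control siRNA. Of the 47 genes 38 were higher in control replicate 1 than in control replicate 2, against 28 and 20 in the other groups. The median difference between replicates of the 47 genes, without regard to sign, was 0.13 on the log2 scale in the control group, 0.06 with Rbm43 siRNA and 0.08 with Cre virus. Over all genes tested it was 0.115, 0.089 and 0.078 in the same order. The control libraries thus lay farther apart than the replicates of either other group.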

How the data were processed

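RNA was read as a stranded mRNA library, paired ends, per the labels' protocols. Tools named in the submitters' processing notes, without their roles, were STAR 2.7.8, fastp 0.23.2 and, for the authors' part, DESeq2 2.11.40.7, and the build named was mm10. The gene counter, its annotation and its strand setting were not given in the sources used here. The deposited values are a normalized signal, read counts divided by a size factor for each library. In every library 100% of values were a whole number of reads within 0.01 read, so reads were recovered for the count tests, and 1 read was worth between 0.878 and 1.22 normalized counts.

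Genes with at least 10 normalized counts in at least 2 libraries were tested (14211, of 35976 rows, 13032 of them at 0 in every library). The test was limma 3.58.1 in R 4.3.3, on log2(normalized count + 1), with a mean-variance trend, all 6 libraries in the same fit (3 residual degrees of freedom), and p-values were adjusted by Benjamini-Hochberg with a threshold of 0.05. The pseudocount of 1 understates changes of low genes. The script was tested on simulated data. Groups and replicate numbers came from the sample titles. Gene models, exon lengths and overlaps came from GENCODE M21. Promoters came from RefSeq. The 47 genes, the lists of other pathway genes, subunits and markers, and the tests were chosen with earlier results of these data known. In each role, values in every library were given for up to 3 genes with the smallest p in the first comparison, up to 2 in the second, and any called against the direction of most of its role; other members were added where a call or partner needed them. Up to 4 other pathway genes with the smallest p were named per comparison. An item that this rule picks is not reported here.

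Other settings tried were a pseudocount of 0.5 or 5, a minimum of 50 or none, upper-quartile, total or quantile scaling, a block for replicate number, a fit of the compared groups alone and a fit without the trend. Count tests on the recovered reads used DESeq2 1.42.0 and edgeR 4.0.16. Each of the 6 libraries was also left out in turn.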

Additional observations from a re-analysis of the deposited data

How the results depend on the processing

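Counts were low for Sco2 and Cox16, whose exons overlap other genes on the same strand, and the part of depth in this was not tested. The 2 libraries in each group limit the precision of every call. Of the 47 genes, 10 of 21 calls with Rbm43 siRNA, 0 of 21 with Cre virus and 3 of 13 between the Cre and control groups held under all 18 alternatives (Pdss1, Coq5, Coq7, Coq10b, Isca1, Isca2, Fdx1, Alas1, Cox10 and Cox15 in the first, Coq10b, Fdx1 and Cox15 in the third). The fit without a mean-variance trend ended all 21 calls with Cre virus. Upper-quartile, total and quantile scaling ended the calls of Cox20 and Sdhaf2 with Rbm43 siRNA and of Coq3 with Cre virus, and upper-quartile scaling that of Isca1 in the third comparison. The cause was not tested.

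In the main analysis limma called 3301 genes with Rbm43 siRNA (1914 higher and 1387 lower), 1208 with Cre virus (372 and 836) and 2096 in the third comparison (1203 and 893). On the recovered reads edgeR called 3263, 1336 and 2111. DESeq2 called 2035 with Rbm43 siRNA (1267 higher, 768 lower), 217 higher with Cre virus and 1220 in the third comparison (690 higher, 530 lower). DESeq2 called 1 other pathway gene lower with Rbm43 siRNA, 7 lower with Cre virus, and 7 subunits higher in the third comparison. Without a filter 888 genes were lower with Rbm43 siRNA, 609 were called with Cre virus (119 higher, 490 lower) and 1251 in the third comparison (718 higher, 533 lower). Without a filter 11 of the 47 fell with Cre virus, other pathway genes gave 1 fall with Rbm43 siRNA and 1 rise and 5 falls with Cre virus, and 3 subunits were higher in the third comparison. Without a trend 1304 genes were called with Rbm43 siRNA (877 higher, 427 lower), 0 with Cre virus and 433 in the third comparison (242 higher, 191 lower). Without a trend the 47 gave 9 rises and 1 fall with Rbm43 siRNA, 0 with Cre virus, and 2 higher and 1 lower in the third comparison, and other pathway genes gave 8 rises and 0 falls with Rbm43 siRNA and 0 elsewhere. Subunits gave 0 calls without a trend with Cre virus and in the third comparison. A fit of only the groups compared called 2083 genes with Cre virus (779 higher, 1304 lower) and 1 other pathway gene lower with Rbm43 siRNA. Total scaling gave 565 genes higher with Cre virus. Of the genes called, the share that was higher was 58.0% with Rbm43 siRNA and 30.8% with Cre virus. It was 46.3% under upper-quartile scaling with Rbm43 siRNA and 43.5% under total scaling with Cre virus.

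Leaving out each library in turn gave 2115 to 3633 genes called with Rbm43 siRNA (1317 to 2140 higher, 755 to 1493 lower), 312 to 2068 with Cre virus (43 to 774 higher, 268 to 1294 lower) and 770 to 2654 in the third comparison (450 to 1551 higher, 320 to 1103 lower). For the 47 genes it gave medians of 0.13 to 0.20, -0.26 to -0.24 and -0.12 to 0.016, the last changing sign without control replicate 1. It gave 8 to 23 falls with Cre virus, and 2 to 4 higher and 3 to 9 lower in the third comparison. Other pathway genes gave 1 to 2 falls with Rbm43 siRNA, 1 to 2 rises and 1 to 15 falls with Cre virus, and 1 to 7 higher and 0 to 3 lower in the third comparison. Subunits gave 23 to 37 falls with Cre virus and 1 to 22 higher and 1 to 3 lower in the third comparison. With a single library left in a group, that library is assumed to vary like the other groups.

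Replicate numbers did not pair the libraries, since the deviations of same-numbered libraries from their group means correlated at 0.02, -0.04 and -0.04 over 14211 genes. With replicate number as a block, the 47 genes gave 20 rises and 3 falls with Rbm43 siRNA, 21 falls and 0 rises with Cre virus, and 4 higher and 9 lower in the third comparison. The block fit called 3412, 1304 and 2214 genes in the 3 comparisons.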
